A study of Drosophila melanogaster with 2 samples.

Results

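A divergent promoter is a stretch of DNA from which neighbouring genes are transcribed in opposite directions, so that their start sites lie head to head and share the DNA between them. In nuclei of the mushroom body (MB), the memory centre of the fly brain, 1572 accessible regions of this kind were found among the 11705 regions that were called accessible in both replicates (consensus regions). A region was counted when it covered a transcription start site of 2 different protein-coding genes on opposite strands, pointing away from each other and at most 1000 bp apart. The set made up 13.4% of all consensus regions, 27.4% of the 5747 regions with a protein-coding start site, and 22.0% of the accessible sequence (2.67 Mb). It held 1729 gene pairs of 3277 genes. Among consensus regions, the set was chosen by position, and fold enrichment was not used. Membership still depended on peak calling in both replicates and on width, since a region had to reach both start sites. Width and fold enrichment of the set are therefore not independent of how it was chosen.

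Head-to-head genes are common in the compact Drosophila genome. DNA near an active start site is kept free of nucleosomes, and the Tn5 transposase used in ATAC-seq cuts most readily in such DNA, so that paired start sites can lie in 1 open region. Promoters of broadly active fly genes are known for motifs such as the DRE, bound by DREF and overlapping the sequence bound by the insulator protein BEAF-32, motif 1, bound by M1BP, the core promoter element Ohler motif 7 (motif 7 below) and an E-box. Developmentally regulated promoters more often carry a TATA box, an Initiator or GAGA repeats bound by GAGA factor.

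Chromatin was measured in naive males of the genotype w*;UAS-Unc84::2xGFP/+;R14H06-Gal4/+, in which the R14H06 driver places a GFP-tagged nuclear envelope protein in Kenyon cells, the principal neurons of the MB. The tagged nuclei were pulled from pools of 50 to 60 heads with antibody-coated beads. The flies had been socially isolated for 5 days and were collected at the time matching 1 h after the onset of courtship training, without being trained. There was 1 group with 2 replicates, so no treatment was compared and no test was run, and differences between kinds of regions were read against the spread between the replicates.

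Replicate 1 had 13868 peaks and replicate 2 had 14583, with median summit pileups of 219 and 216 (Poisson error 6.76% and 6.80%). All 11 MB marker genes examined had a start site in a consensus region, against 3 of 5 glial genes, 1 of 4 photoreceptor genes and 0 of 5 genes of fat body, muscle and blood. The contribution of other cells to the divergent promoter regions was not tested. A region open in few nuclei and one weakly open in all nuclei cannot be told apart in these pooled nuclei.

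The DNA between the start sites is shown for 4 pairs that carry the motifs described below. Each has a high fold enrichment percentile and holds a given motif between its start sites (DRE, motif 1, motif 7 or E-box in turn). Start sites had to be 20 to 300 bp apart. The pair shown is not in every case the highest with that motif. Psf1 with Sac1, shown for the DRE, also holds motif 7 and ranks above Vps39 with eIF1A, shown for motif 7. The 4 pairs were chosen after the values were seen. All are read on the plus strand of dm6 from the base after the minus-strand start site to the base before the plus-strand start site, so that the left gene runs leftwards and the right gene rightwards. Capitals mark exact matches to the DRE (TATCGATA), motif 1 (GGTCACACT), motif 7 (CANCNCTA) or the E-box (CAGCTG) on either strand.
Psf1/Sac1: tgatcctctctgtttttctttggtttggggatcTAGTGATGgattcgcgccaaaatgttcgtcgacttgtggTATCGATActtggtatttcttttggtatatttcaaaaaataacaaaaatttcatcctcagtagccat
l(2)34Fd/Rab14: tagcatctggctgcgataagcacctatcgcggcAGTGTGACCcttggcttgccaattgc
Vps39/eIF1A: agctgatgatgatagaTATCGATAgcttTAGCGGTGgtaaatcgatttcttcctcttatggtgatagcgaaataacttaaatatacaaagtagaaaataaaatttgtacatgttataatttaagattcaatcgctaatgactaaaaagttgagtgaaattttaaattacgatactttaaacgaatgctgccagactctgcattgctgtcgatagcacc
SMSr/smid: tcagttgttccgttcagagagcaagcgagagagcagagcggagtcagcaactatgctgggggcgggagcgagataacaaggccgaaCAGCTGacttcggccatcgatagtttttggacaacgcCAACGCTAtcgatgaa

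The 139 bases between Psf1, a subunit of the GINS replication complex, and Sac1, a phosphoinositide phosphatase (chr3L:1247678-1247816), held a DRE from base 73 and motif 7 from base 34. In the 59 bases between l(2)34Fd and Rab14, a small GTPase of membrane traffic (chr2L:14355086-14355144), motif 1 began at base 34. The 218 bases between Vps39, a subunit of the endosomal HOPS complex, and eIF1A, a translation initiation factor (chr3R:18274447-18274664), had a DRE from base 17 and motif 7 from base 29, both close to the start site of Vps39. The 139 bases between SMSr, the sphingomyelin synthase related gene, and smid, an AAA ATPase gene (chr3L:7381475-7381613), held an E-box from base 87 and motif 7 from base 124. These intervals differed in composition, with a GC content of 36.7% between Psf1 and Sac1, 55.9% between l(2)34Fd and Rab14, 32.1% between Vps39 and eIF1A and 54.0% between SMSr and smid.

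A pair of further intervals is shown for what their genes encode. Taf10b and Taf10, which encode histone-fold subunits of the general transcription factor TFIID and related complexes, started 45 bp apart (chr2L:2767846-2767889). Dref, the gene of the factor that binds the DRE, shared its region with the ribosomal protein gene RpL13, with start sites 84 bp apart (chr2L:9967230-9967312). In these intervals capitals mark the BEAF-32 core (CGATA on either strand), and none of the 4 motifs above was matched in either.
Taf10b/Taf10: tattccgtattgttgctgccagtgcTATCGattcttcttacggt
Dref/RpL13: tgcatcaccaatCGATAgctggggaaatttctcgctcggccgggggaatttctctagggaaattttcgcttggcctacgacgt

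The start sites of the 1572 regions lay between 1 and 991 bp apart, with a median of 258.5 bp and quartiles of 112 and 382.25 bp. The distances did not form a single hump. In bins of 20 bp, annotated pairs numbered 107 at 41 to 60 bp, fell to 54 and 53 at 141 to 160 and 161 to 180 bp, and rose to 138 at 241 to 260 bp. The regions were therefore described in 4 classes, set after this distribution was seen: 488 with start sites up to 150 bp apart, 80 at 151 to 200 bp, 546 at 201 to 350 bp and 458 beyond 350 bp. For regions with several pairs, the closest pair was used. Exactly 2 protein-coding genes started in 1392 regions, 180 held 3 or more (at most 10), and 68 also covered a noncoding start site.

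**Figure D1:**
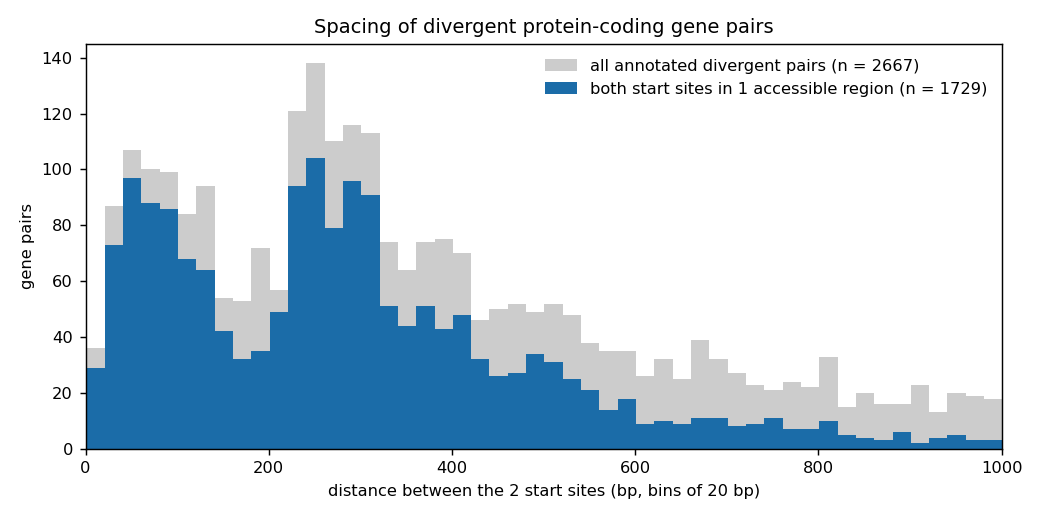
Number of annotated divergent pairs of protein-coding genes (grey, 2667 pairs) and of pairs with both start sites in 1 consensus region (blue, 1729 pairs), against the distance between the start sites in bins of 20 bp. Pairs collect below 150 bp and around 250 bp, with fewer pairs between 141 and 220 bp, and the blue share shrinks at larger distances.

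Accessibility was then compared over all divergent pairs of the annotation. Of 2667 annotated pairs, 64.8% had both start sites in 1 consensus region. A further 70 pairs had their start sites in separate regions, 356 had 1 start site covered, and 512 (19.2%) had neither. A start site in a consensus region was found for 51.1% of all 13968 protein-coding genes, for 75.6% of the 5052 genes in annotated divergent pairs and for 37.2% of the 8916 genes outside them. Which genes are active in these neurons was not measured in these data.

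The share of pairs in 1 region was 86.2% at 1 to 50 bp and 87.5% at 51 to 100 bp. It was lower at 151 to 200 bp (58.4%, of 149 pairs), where 36.2% of pairs had neither start site covered, and higher again at 201 to 250 bp (79.8%). At 751 to 1000 bp it was 25.6%. A wider spacing needs a wider region, so part of this decline follows from the definition. Divergent pairs were joined in 1 region more often than protein-coding pairs on the same strand. Of the same-strand pairs, 25.7% (143 of 557) were joined, and 444 of the 557 lay 501 to 1000 bp apart. Shares were taken over all annotated pairs, accessible or not, so they do not separate being joined from being accessible. Within 250 bp the shares were 78.5% of 1028 divergent pairs and 59.3% of 59 same-strand pairs, at 251 to 500 bp they were 69.9% and 40.7%, and at 501 to 1000 bp they were 36.6% and 19.4%.

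Pairs split over separate regions had start sites further apart (median 586 bp), with a median of 318 bp of sequence between the regions. Only 4 of the 70 lay within 300 bp. The closest was sav, a scaffold of the Hippo pathway, with Ublcp1, whose start sites were 189 bp apart and whose regions were 105 bp apart. The region of sav stood at the 22.5 and 28.9 percentile of fold enrichment in replicates 1 and 2, and that of Ublcp1 at 42.6 and 41.9. Another was mRpL21, a mitochondrial ribosomal protein gene, with rept, a helicase of chromatin remodelling complexes, at 279 bp.

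Just inside the limit of 1000 bp were the unnamed genes CG32767 and CG15465 at 991 bp, DIP-epsilon (a cell surface protein of the immunoglobulin family) and CG13982 at 989 bp, and tacc (a centrosomal protein) and atms (a Paf1 complex subunit) at 979 bp. Just outside were raptor, a subunit of the TOR complex, with Nep1 (1004 bp), Rgk1 with CG11961 (1007 bp), and egg, a histone methyltransferase, with CG3594 (1016 bp). Their percentiles in replicates 1 and 2 were 63.8 and 74.3 for raptor and Nep1, 98.1 and 98.3 for Rgk1 and CG11961, and 72.9 and 64.6 for egg and CG3594. Of the pairs inside, DIP-epsilon and CG13982 were at 94.3 and 94.0 and CG32767 and CG15465 at 65.7 and 69.8.

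Genes of basic cell functions were frequent in divergent promoter regions. Of all protein-coding genes, 23.5% (3277 of 13968) were in such a region, which is 45.9% of the genes with an accessible start site. Over 14 lists of such genes, 266 of 515 genes (51.7%) were in a divergent promoter region, or 63.6% of the 418 with an accessible start site. The highest shares were those of nuclear pore proteins (16 of 21), subunits of the cytosolic chaperonin CCT (6 of 8), TBP-associated factors of the general transcription machinery (11 of 15), subunits of Mediator, which links activators to RNA polymerase II (17 of 25), and Prp splicing proteins (8 of 12). Mitochondrial ribosomal proteins had 47 of 73 genes in the set, RNA polymerase subunits 18 of 30, aminoacyl-tRNA synthetases 19 of 33, and Vps endosomal sorting proteins 14 of 27. Cytoplasmic ribosomal proteins (41 of 92), replication licensing proteins (6 of 14), oxidative phosphorylation subunits (34 of 84), proteasome subunits (18 of 48) and subunits of the vacuolar proton pump (11 of 33) followed, all above the share over all genes. In annotated divergent pairs, these lists had from 42.4% (vacuolar proton pump) to 91.7% (Prp splicing proteins) of their genes, beside 5052 of 13968 over all genes. The high shares in the set thus went with high shares in the annotation. Among the insulator and promoter architecture factors, 7 of 15 were in the set.

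Neuronal genes showed another arrangement. The start sites of 9 of 10 nicotinic acetylcholine receptor subunits lay in consensus regions and 0 of 10 genes were in a divergent promoter region. For bioamine and neuropeptide receptors the numbers were 35 of 40 accessible and 1 of 40 divergent, and for proteins of synaptic vesicle release and the active zone 26 of 28 and 1 of 28. All 11 MB identity genes were accessible and 1 was in the set, and of 8 activity-regulated genes 6 were accessible and 0 were in the set. The annotation holds few head-to-head pairs for these genes, with 2 nicotinic subunits, 4 receptors, 6 synaptic genes, 1 MB identity gene and 0 activity-regulated genes in annotated divergent pairs. Over all genes, 5052 of 13968 are in annotated divergent pairs. The low shares of these lists in the set thus went with low shares in the annotation.

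Genes of other tissues were mostly closed. Chemoreceptors had 7 of 179 start sites accessible, and 6 of these 7 were in divergent promoter regions. In that list the partner of Ir60b was Letm1, a mitochondrial ion exchanger (percentiles 90.8 and 88.0), that of Gr32a was Idua, a lysosomal enzyme (92.6 and 78.3), and those of Gr97a and Or63a were CG5521 (85.1 and 84.5) and CG34025 (83.3 and 83.1). Which of the 2 start sites an open region serves cannot be told from these data. Of 95 cuticular protein genes, 3 were accessible and 0 were in the set. The photoreceptor phospholipase C gene norpA shared a region with mRpL33 (76.2 and 73.0).

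**Figure D2:**
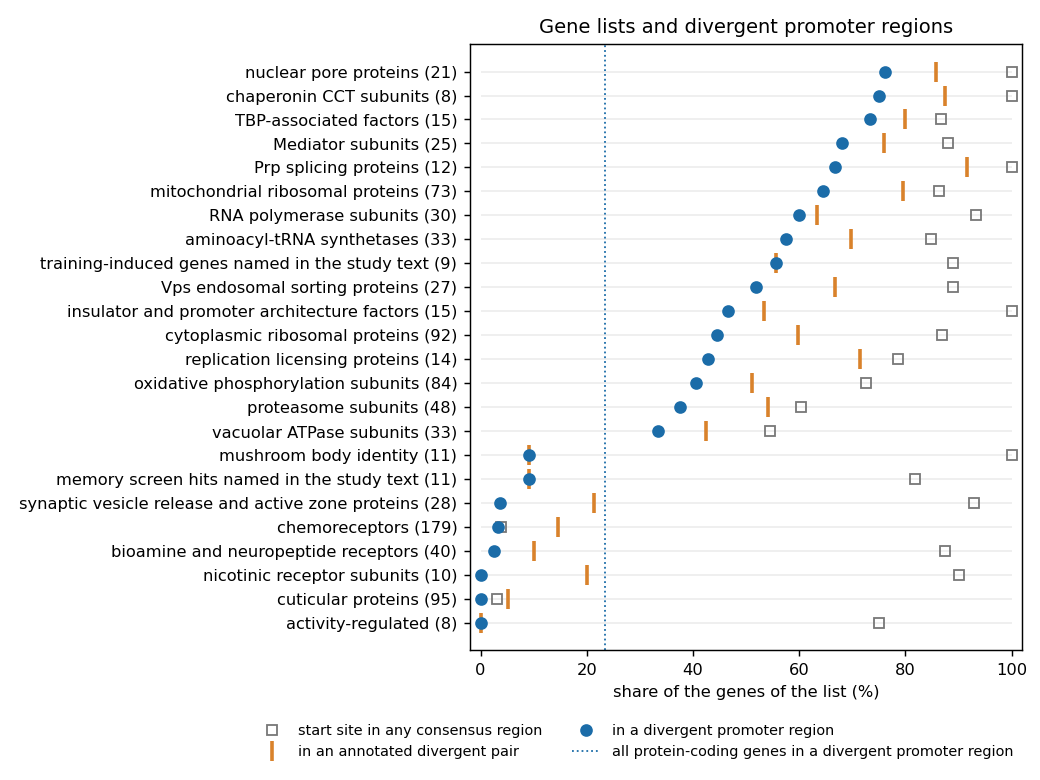
Share of the genes of each list with at least 8 genes (numbers of genes in brackets) that had a start site in any consensus region (squares), that were in an annotated divergent pair (vertical ticks) and that were in a divergent promoter region (circles), with the share over all genes, 23.5%, as a dotted line. Lists of basic cell functions lie to the right of the dotted line. Nicotinic receptor, bioamine and neuropeptide receptor, synaptic and MB identity genes lie to its left although most of their start sites were accessible. Chemoreceptors also lie to its left, with 7 of 179 start sites accessible.

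Both genes belonged to these 14 lists in 8 pairs. Nup75, a nuclear pore protein, faced MED9, a Mediator subunit, at 115 bp (percentiles 84.0 and 82.2), and COX8, a subunit of cytochrome c oxidase, faced VhaM9.7-b of the vacuolar proton pump at 415 bp (82.7 and 89.7). TrpRS, the tryptophanyl-tRNA synthetase, was paired with Vps16A (75.1 and 82.4), and mRpL55 with ATPsynD, a subunit of mitochondrial ATP synthase (85.2 and 87.4). The others were Vha13 with Nup58, RpS27 with Nup37, mRpL39 with Prosbeta2, and Taf10b with Taf10. Among the insulator genes, Ibf2 and Ibf1, which encode insulator binding factors, faced each other at 463 bp (68.3 and 68.0).

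Accessibility was described by the fold enrichment of the strongest peak of each replicate in a region, which is the fragment pileup at its summit over a background from the same library, and by its percentile among all peaks of that replicate. The 2 replicates ranked the regions alike, with a Spearman rho of 0.964 over the 1572 regions, which share libraries and depth within a replicate. The percentile differed between replicates by a median of 2.74 points and by under 10 points in 1484 regions (94.4%).

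Divergent promoter regions had a median percentile of 75.8 in both replicates, with quartiles of 62.6 and 85.4 in replicate 1 and 62.4 and 85.8 in replicate 2. Regions with the start site of 1 protein-coding gene (1-gene promoter regions, n = 3982) had medians of 70.9 and 72.1, and all consensus regions 57.7 and 59.7. The difference from 1-gene promoter regions was 4.28 ± 0.883 percentile points (SD, n = 2), larger than its spread between replicates. The median fold enrichment was 2.94 and 2.77 in divergent and 2.72 and 2.61 in 1-gene promoter regions, and the median summit pileup was 393 and 386 against 329 and 324. The background at the summit was also higher, at 136 and 142 against 115 and 120.

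The direction of the percentile difference turned once regions of like width were compared. Divergent promoter regions were wider, with a median of 1623 bp against 1132 bp, and had to be wide enough to cover both start sites. The 193 other promoter regions of 2 or more protein-coding genes were as wide (median 1687 bp), with median percentiles of 73.7 and 77.0, so that greater width and a higher percentile than in 1-gene promoter regions were not particular to divergent pairs. At widths of 500 to 1000 bp, the median percentiles were 47.2 and 47.8 in divergent and 57.6 and 58.3 in 1-gene promoter regions. At 1000 to 1500 bp they were 67.5 and 67.4 against 76.9 and 78.0, at 1500 to 2000 bp 81.9 and 82.0 against 85.6 and 86.4, and at 2000 to 3000 bp 83.4 and 83.3 against 85.8 and 87.0. In each of these 4 width ranges the percentile of divergent promoter regions was lower in both replicates. The median summit pileup was not lower at 500 to 1000 bp, with 270 and 266 against 258 and 262. The background there was 140 and 145 against 109 and 116. At 1000 to 1500 bp the pileup was lower, with 335 and 328 against 361.5 and 361, and it was also lower in the wider ranges. The background was higher in all of these ranges.

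At the ends of the range, the strongest 5% of each peak list held 4.20% and 3.88% of them, against 11.5% and 12.1% of the 1-gene promoter regions. The lowest 25% of each list held 1.78% and 1.97%, against 4.82% and 4.95%. Over all widths they were thus fewer at both ends, by more than the difference between replicates. At like width this did not hold for the low end. At 500 to 1000 bp the lowest 25% held 12.3% of divergent promoter regions in both replicates, against 4.58% and 4.75% of the 1-gene promoter regions, and at 1000 to 1500 bp 0.311% ± 0.146 against 0.290% ± 0.176 (SD, n = 2).

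Within the set, accessibility varied with spacing. The median percentile was 68.0 and 67.2 in replicates 1 and 2 at 1 to 50 bp, rose to 77.7 in both replicates at 101 to 150 bp, and was lowest at 201 to 250 bp with 66.6 and 65.7. It was 72.7 and 73.0 at 251 to 300 bp and 79.4 and 79.6 at 301 to 400 bp. At 751 to 1000 bp it reached 81.4 and 82.9. The median width also rose, from 1368 bp at 1 to 50 bp to 2297 bp at 751 to 1000 bp, and was 1401.5 bp at 201 to 250 bp. A region had to span its pair to be counted, and wider regions had higher percentiles in the width ranges above. At 751 to 1000 bp only 25.6% of annotated pairs were in 1 region, and the narrowest divergent promoter region of that spacing was 1201 bp wide. How much of the change with spacing follows from this selection of wide regions was not tested.

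**Figure D3:**
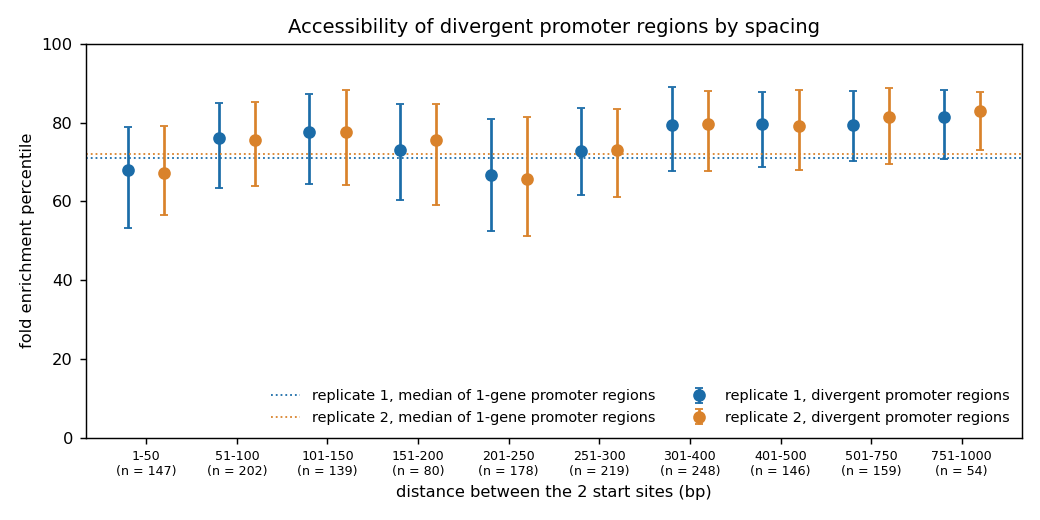
Median fold enrichment percentile of divergent promoter regions (points, bars from the lower to the upper quartile) by distance between the start sites in replicate 1 (blue) and replicate 2 (orange), with the medians of 1-gene promoter regions as dotted lines (70.9 and 72.1). In both replicates the bins of 1 to 50 bp and 201 to 250 bp lie lowest and the bins beyond 300 bp highest, and the quartile bars of all bins overlap.

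The highest mean percentile was that of fy, a planar cell polarity gene, with emb, which encodes the nuclear export receptor CRM1 (chr2L:8402445-8404557, start sites 293 bp apart). Its fold enrichment was 5.48 in replicate 1 (counting interval 5.10 to 5.88) and 5.23 in replicate 2, and both replicates placed it at percentile 98.8. The next were Dlg5, a scaffold protein of the MAGUK family, with CG4970 (5.60 and 4.89) and CG10462 with Nf-YB, a subunit of the CCAAT-binding factor NF-Y (5.13 and 5.29). Among the 10 highest were also Syngr, a membrane protein of synaptic vesicles, with CG30484 (5.28 and 5.07), Sema1b, a semaphorin, with HPS4 (5.43 and 4.90), and SmE, a core splicing protein, with CG34132 (5.38 and 4.82). The rest of these were hrg, a poly(A) polymerase, with Kpc2, Psf1 with Sac1, Sym, a subunit of the mRNA cleavage machinery, with Madm, and Ttc7 with bin3, a methyltransferase of the 7SK RNA, at 4.63 to 5.43. Their start sites were between 34 and 786 bp apart, so that the strongest regions did not share a spacing.

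The lowest mean percentile was that of peo and Ntmt, a protein N-terminal methyltransferase (fold enrichment 1.32 and 1.33, percentiles 1.28 and 2.18). Rpn13, a ubiquitin receptor of the proteasome, with CtsL1, a lysosomal protease, followed with 1.33 and 1.37, with summit pileups of 357 and 358 beside medians of 393 and 386 over the set. CG14817 with CG14805 (1.33 and 1.42), mTerf3, a mitochondrial transcription factor, with CG5104 (1.44 and 1.38) and the mitochondrial synthetase gene TyrRS-m with CG3589 (1.34 and 1.47) completed the 5 lowest. These regions were 330 to 949 bp wide, below the lower quartile of 1260 bp of the set.

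The closest start sites lay 1 bp apart in Atg6, an autophagy gene of the Beclin family, with Pisd, a phosphatidylserine decarboxylase, and in CG4730 with CG5039. The fold enrichment was 1.79 and 1.69 at Atg6 and Pisd and 2.11 and 2.00 at CG4730 and CG5039. At 2 bp were dpa, which encodes the replication helicase subunit Mcm4, with didum, the class V myosin (2.98 and 2.67), and CG11710 with mal (1.98 and 2.02). CG3032 and CG4593 were 6 bp apart (2.65 and 2.51). Of these 5, dpa and didum alone exceeded the median of the set in replicate 1, and none did in replicate 2.

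The replicates differed most at PolE2, a subunit of DNA polymerase epsilon, with CG5592 (percentiles 50.8 and 23.1), at Coq3 with Pld3 (0.461 and 27.6) and at twe, a meiotic Cdc25 phosphatase, with CG4935 (26.8 and 1.04). Next came mbm, a gene needed for normal growth of the MB, with CG11555 (14.6 and 39.4) and vret with HP1c, a heterochromatin protein 1 family member (19.7 and 43.2). All 5 regions were narrower than 800 bp and had summit pileups between 132 and 259, below the medians of 393 and 386. At mbm and CG11555 the fold enrichment was 1.45 in replicate 1 (counting interval 1.26 to 1.65) and 1.67 in replicate 2.

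A list of 9 of the genes that the text of the study names as training induced had 5 in divergent promoter regions. Over all genes the share was 23.5%, and 45.9% of those with an accessible start site. Of the 9 genes, 8 had an accessible start site and 5 were in annotated divergent pairs. The list is not complete and leaves out others that the text names as induced. Among these, Hr38 and sr were counted with the activity-regulated genes, of which 0 were in the set. The gene eIF1A, whose region is shared with Vps39 (shown above), had a fold enrichment of 4.91 and 4.88 (percentiles 97.5 and 98.0). Arpc2, a subunit of the actin nucleating complex Arp2/3, shared its region with CG10949 (4.73 and 4.87), and eIF3b, a translation initiation factor subunit, with Patronin, which binds microtubule minus ends (4.57 and 4.44). Pka-C1, the catalytic subunit of protein kinase A and the only MB identity gene in the set, was 494 bp from hoip (3.18 and 3.36), and RpS21 was 292 bp from CG3104 (2.97 and 2.91). Expression was not measured in these samples. One of 11 genes named as memory screen hits, the BET bromodomain gene fs(1)h, was in the set and faced mys, a beta integrin, at 209 bp (percentiles 70.8 and 78.1).

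Regions of 1 list varied widely in strength. Among the mitochondrial ribosomal protein genes, mRpS6 with Cip4 (percentiles 93.7 and 94.9) and mRpS14 with Naa15-16 (94.2 and 93.6) were the strongest, beside list medians of 72.1 and 74.8. The regions of the cytoplasmic ribosomal protein genes had medians of 76.0 and 77.3. Rpn8, a proteasome lid subunit, with Slik (96.5 and 97.3) led the proteasome genes, which had medians of 64.3 and 62.2. The lists thus did not lie consistently above the median of the set.

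In other lists, MED7 with Cap-H2, a condensin subunit, stood at 95.8 in both replicates, Nup98-96 with mbc, a guanine nucleotide exchange factor, at 93.8 and 95.5, and ATPsyndelta with Ypel at 95.5 and 95.8. AspRS was paired with Nmda1 (91.0 and 88.9), Vha55 with Snx3 (90.5 and 91.5) and the polymerase subunit gene Polr2H with CG11247 (96.1 and 91.1). The single gene of the bioamine and neuropeptide receptor list in the set was CCHa1-R, paired with eIF3c (79.9 and 83.2). That of the synaptic vesicle release and active zone list was Rop, a SNARE regulator, paired with the small GTPase gene Ras64B (80.4 and 77.5). Syngr, named above among the strongest regions, was not on that list. Among the insulator genes were su(Hw) with Polr2I (89.5 and 86.3), Chro with the TFIIH subunit gene Ssl1 (86.5 and 85.6), Dref with RpL13 (75.9 and 73.5) and Cp190 with CG4338 (74.6 and 70.0).

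The regions reached well past the start sites, by a median of 628.5 bp on the side of the minus-strand gene and 618 bp on the other. A single peak per replicate was found in 1471 regions. In 1455 regions the strongest peak of each replicate covered both start sites, in 115 regions that of 1 replicate did, and in 2 regions that of neither did. Since a region had to join both start sites to be counted, and the 70 pairs with a region per gene were left out, these counts are a description of the set.

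The summit lay between the start sites in 40.2% of the regions in replicate 1 and 39.7% in replicate 2 (39.9% ± 0.360, SD, n = 2). The share was 26.6% and 26.0% where the start sites were up to 150 bp apart, 48.5% and 45.4% at 201 to 350 bp, and 45.6% and 48.0% beyond 350 bp. The median distance to the nearest of the start sites was 74 bp in both replicates, against 105 and 107 bp in 1-gene promoter regions, which offer a single gene's start sites to be near to. The medians rest on unlike sets of start sites. In divergent promoter regions only those of the closest pair were used, and in 1-gene promoter regions all annotated start sites of the gene in the region.

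Where the start sites were over 350 bp apart, the summit lay a median of 278.75 and 281 bp from the midpoint in replicates 1 and 2. Both replicates placed the summit on the same side of the midpoint in 85.6% of all regions. The side of the plus-strand gene was taken by 44.5% and 43.6% of summits up to 150 bp and by 56.1% and 55.0% beyond 350 bp. In 1-gene promoter regions the median summit was 0 and 5 bp upstream of the start site for plus-strand genes and 5.5 and 7 bp downstream for minus-strand genes. The summits of both replicates were a median of 39 bp apart, which limits the resolution of these positions.

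**Figure D4:**
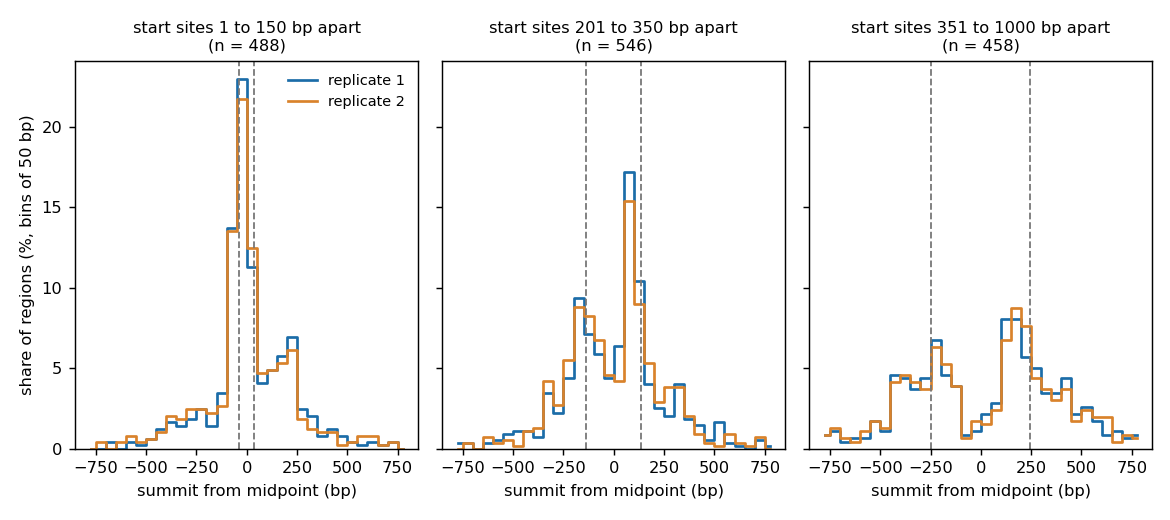
Position of the summit relative to the midpoint between the start sites (positive values towards the plus-strand gene), as share of regions in bins of 50 bp, for start sites 1 to 150, 201 to 350 and 351 to 1000 bp apart in replicate 1 (blue) and replicate 2 (orange). Dashed lines mark the median position of the start sites. Summits form 1 central peak in the closest class and stand apart on both sides of the midpoint in the widest class.

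Motifs were counted within 100 bp of the summit. A DRE was found in 10.6% ± 0.405 of divergent promoter regions (SD, n = 2), in 4.04% ± 0.178 of 1-gene promoter regions and in 3.17% ± 0.115 of all consensus regions. Motif 1 was found in 9.45% ± 0.225, against 3.33% ± 0.160 in 1-gene promoter regions. Motif 7 gave 16.8% ± 0.675 against 9.14% ± 0.320, and the BEAF-32 core, which is part of every DRE, gave 43.2% ± 0.495 against 28.8% ± 0.195. These differences exceeded the spread between replicates. The same reference bases were searched for both replicates, so this spread reflects only where each replicate placed the summit. The windows also differed in base composition, with a median GC content of 42.3% and 42.8% in divergent and 47.8% and 48.3% in 1-gene promoter regions. How much of the motif differences here and below follows from base composition was not tested.

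The GAGA repeat (GAGAGAG) went the other way, in 4.36% ± 0.135 of divergent and 13.3% ± 0.178 of 1-gene promoter regions. The Initiator core (TCAGT) was found in 30.6% ± 1.21 and 36.1% ± 0.817. The TATA box (TATAAA) was more frequent in divergent promoter regions, in 21.2% ± 1.39 against 14.7% ± 0.178, and the E-box was found in 17.8% ± 0.450 against 16.2% ± 0.178, a difference that depended on the window and was 0.195 percentage points with 50 bp each side of the summit of replicate 1. Motifs of factors linked to neuronal activity were rare in both kinds in these windows. The EGR motif (GTGGGCG) was found in 3.12% of divergent and 3.69% ± 0.284 of 1-gene promoter regions, beside 6.36% of all consensus regions. The AP-1 motif (TGANTCA) gave 3.82% ± 0.180 and 3.65% ± 0.0178, the CRE (TGACGTCA) 0.509% ± 0.180 and 0.502% ± 0.0710, and the NBRE (AAAGGTCA) 0.254% ± 0.180 and 0.239% ± 0.0533.

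Counted from the annotation and without the summit, the same order was seen. In the 100 bp upstream of a start site, a DRE was present at 13.3% of the 3144 start sites of the set, at 6.50% of those of 1-gene promoter regions and at 5.11% of all 19630 protein-coding start sites. The BEAF-32 core was present at 45.7%, 28.9% and 25.9%, motif 7 at 11.9%, 6.33% and 6.07%, and motif 1 at 5.44%, 2.79% and 1.90%. GAGA repeats were present at 1.02%, 8.01% and 3.45%. The TATA box was present at 13.8% of the start sites of the set, above the 9.74% of 1-gene promoter regions and below the 18.1% of all start sites. Start sites of a close pair share part of this window, so they are not independent.

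Motifs upstream of each start site were then counted by pair. In the 1004 regions with start sites over 200 bp apart, where the upstream windows do not overlap, a DRE was upstream of both start sites in 15 regions, of 1 in 205 and of neither in 784. Motif 1 was upstream of both in 3 and of 1 in 72, and motif 7 in 14 and 212. The shorter BEAF-32 core was upstream of both in 210 and of 1 in 421. GAGA repeats were upstream of both in 0 regions and of 1 in 22. The counts with both were not compared with those that the share per start site would give.

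Motif content changed with the spacing. Around the midpoint (100 bp each side), a DRE was present in 22.7% of the regions with start sites up to 150 bp apart, in 15% at 151 to 200 bp, in 9.16% at 201 to 350 bp and in 2.4% beyond. Motif 1 fell from 15.6% in the closest class to 0.655% in the widest, motif 7 from 25.4% to 6.55% and the E-box from 30.7% to 5.90%. At least 1 of these 4 motifs was present in 330 of 488 regions (67.6%) up to 150 bp and in 276 of 1084 (25.5%) beyond. In the close class the window takes in both start sites, and beyond 200 bp it holds only DNA further upstream of both, so that these shares describe where the motifs lie and not only how many there are. Between the start sites as a whole, a DRE was present in 17.0% of the closest and 29.7% of the widest class, whose intervals are longer.

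**Figure D5:**
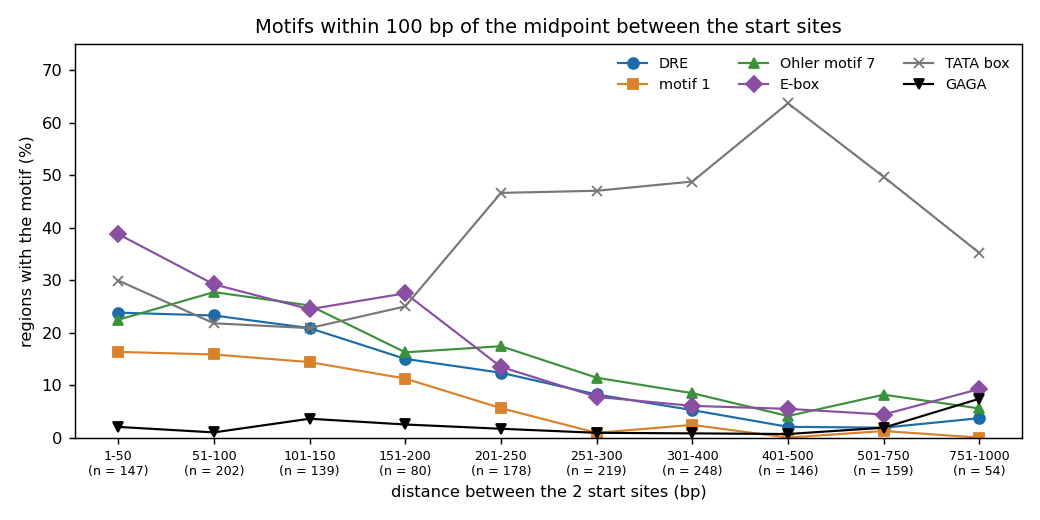
Share of divergent promoter regions with each motif within 100 bp of the midpoint between the start sites, by distance between the start sites. DRE, motif 1, motif 7 and E-box fall as the distance grows, the TATA box letters rise above 200 bp, and GAGA repeats are below 8% in all bins.

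Per length, the DRE was concentrated between the start sites. It occurred 0.869 times per kb between them and 0.237 times per kb in the 150 bp inside each gene, and in the closest class 2.36 and 0.280 times per kb. The BEAF-32 core occurred 5.85 and 2.50 times per kb. For motif 1 the densities over the whole set were 0.332 per kb between the start sites and 0.386 per kb inside the genes, and for the E-box 0.794 and 0.861 per kb. In the closest class both were denser between the start sites, motif 1 with 0.976 against 0.335 per kb and the E-box with 2.06 against 0.970 per kb. Where a DRE lay between the start sites, its median distance to the nearer of them was 32.5 bp, and that of motif 1 was 22 bp. The TATA letters lay a median of 118.5 bp from the nearer start site, and the DNA around the midpoint was rich in A and T in the same regions, with a median GC content of 40.3% in the closest, 30.3% at 201 to 350 bp and 28.4% in the widest class.

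Regions with and without a motif near the midpoint differed little in accessibility. The median percentile was 74.0 and 74.6 with a DRE (184 regions) and 76.1 and 75.9 without. It was 74.9 and 74.8 with motif 1 (105 regions) and 75.9 and 76.0 without, and 76.3 and 76.6 with motif 7 and 75.7 in both replicates without. The E-box gave the widest gap of these, with 70.8 and 71.8 in 248 regions with it and 76.6 and 76.8 without, and its regions had closer start sites (median 111 bp).

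Divergent promoter regions lay on the X chromosome, the large autosomal arms and chromosome 4. They made up 16.6% of the consensus regions of the X chromosome, 14.6% on 3R, 13.1% on 2R, 12.5% on 2L and 11.7% on 3L. On the small chromosome 4 they numbered 6 of 150 (4%). The median percentile on the X was 74.0 and 74.9, beside 79.3 and 78.5 on 3L, which was the highest of the large arms. The share of annotated pairs in 1 region was 73.6% on 3R and 58.3% on 2L, the highest and the lowest of these arms.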

How the data were processed

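ATAC-seq reads of MB nuclei from naive flies had been trimmed with Trimmomatic 0.39, aligned to dm6 with Bowtie2 2.4.1 and used to call peaks with MACS2 2.1.2 by the authors (q-value limit 0.01), with each replicate called on its own. Before calling, per the study's methods, reads had been shifted for Tn5, and duplicate, multiply mapped, mitochondrial and scaffold reads had been removed. Per the deposited peak lists, the fold enrichment is a ratio of summit pileup to a background from the same library (the authors' peak caller adds a pseudocount of 1), and significance was deposited as −log10 of the p-value and of the q-value. The deposited score was not used, and the other deposited value was the summit offset. No control library was named, so a wide open stretch can inflate its own background and hold the fold down.

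Pileup and background were solved from fold enrichment and p-value, and pileups came within 0.0213 of a whole number. Intervals are exact Poisson 95% intervals of the pileup and leave out every error but that of counting. Overlapping peaks (at least 1 bp) of the replicates were merged. Start sites were those of all protein-coding transcripts in Ensembl release 115 (the authors used release 103), without transposable elements, and bases came from the RefSeq genome sequence of dm6. Motifs were exact matches on either strand (12 motifs), and the DRE contains the BEAF-32 core. Gene lists (27) and members were chosen with earlier results of these data known. Named regions were the 10 highest and 5 lowest by mean percentile, the 5 closest, 5 most distant and 5 most different between replicates, those with memory-related genes and up to 4 of each other list. One region under this rule is not reported here. The closest pair carried no bases between its start sites, so pairs with the motif between them were shown in its place. A percentile is the percent of a replicate's peaks that are lower in fold enrichment. Scripts were tested on simulated data and used Python 3.11.15, numpy 2.4.6, pandas 2.3.3, scipy 1.17.1 and matplotlib 3.10.9.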

Additional observations from a re-analysis of the deposited data

How the results depend on the processing

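The number of divergent promoter regions ranged from 1359 (start sites at most 500 bp apart) to 1593 (at most 2000 bp) under the alternatives tried, and was 1503 to 1539 with 1 replicate alone. The share of annotated pairs in 1 region was 61.9% to 63.4% with 1 replicate and 64.2% to 64.5% under the others. The percentile difference of 4.28 points from 1-gene promoter regions was 3.65 to 4.90 with 1 replicate left out, 5.35 by −log10 q, 7.50 by summit pileup, 3.27 for start sites at most 500 bp apart, and reversed to -10.4 points for regions of 500 to 1000 bp. In other width ranges, which were chosen after seeing the data, it reversed to -10.0 (1000 to 1500 bp), -4.07 (1500 to 2000 bp) and -3.07 points (2000 to 3000 bp). The cause of the reversal was not tested. The width difference of 491 bp was 476 bp by the peaks of each replicate and 485 to 508 bp with 1 replicate. Summits between the start sites were 39.7% to 40.2% with 1 replicate and 44.9% for pairs at least 100 bp apart.

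Motif differences between divergent and 1-gene promoter regions are in percentage points at the summit of replicate 1. For the DRE (6.71) they were 4.38 with 50 bp each side, 10.2 with 250 bp, 6.39 at the summit of replicate 2 and 18.0 over whole regions of 500 to 1000 bp. For motif 1 (6.17) they were 2.96, 7.70, 6.07 and 4.79, and for GAGA (-8.96) they were -5.08, -13.5, -8.90 and -13.1. In the same order they were 4.07, 12.4, 7.87 and 16.4 for motif 7 (7.37), 0.195, 3.51, 1.15 and 12.8 for the E-box (2.03), 3.71, 8.17, 5.41 and 13.1 for the TATA box (7.64) and -0.710, -1.75, -0.775 and -0.0549 for EGR (-0.374). Among the rare activity motifs the sign turned for the CRE (from 0.0836 to -0.0353 with 250 bp and -0.0704 at the summit of replicate 2), for AP-1 (from 0.278 to -0.382 with 50 bp and -0.490 with 250 bp) and for the NBRE (from -0.0737 to 0.0519, 0.266 and 0.105 with 50 bp, 250 bp and the summit of replicate 2, and -2.21 over whole regions), so no direction is given for them. All 27 counts of list genes stayed within 1.5 times when only the 5′ end of each gene was used. Depth limits single weak regions, since pileups near 200 carry a counting error of about 6.80%. With 1 group of 2 replicates from 1 genotype, the spread covers these 2 pools alone. No paired analysis was possible because there was 1 group.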
